A study of Mus musculus with 4 samples.

Results

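The genes examined here were 9 genes that mark resident Kupffer cells, the macrophages that live in the sinusoids of the liver: Clec4f, Vsig4, Timd4, Marco, Cd5l, Cd163, C1qa, C1qb and C1qc. They were found by symbol, and all 9 were among the 24346 genes listed for each library. Liver RNA was sequenced from male C57BL/6 mice that were 8 weeks old when the diets began. Every mouse received the NASH diet, which is rich in fat, cholesterol and sucrose, contains a bile salt and produces steatohepatitis. The control group (n = 2) received this diet alone for 3 weeks, and the 7KC group (n = 2) received it with 7-ketocholesterol (7KC), an oxidized form of cholesterol. Both groups thus had steatohepatitis, and mice on ordinary chow were not analysed here. The question was whether the genes of resident Kupffer cells differed when 7KC was added.

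Kupffer cells descend from embryonic precursors, renew themselves locally and clear particles, microbes, dying cells and aged red cells from portal blood. In steatohepatitis some of them are lost and monocytes from the blood can take their place. Monocyte-derived Kupffer cells acquire Clec4f, whereas Timd4 is acquired late and is widely used as a mark of the embryonic population. The 9 genes also differ in how specific they are. Clec4f is nearly restricted to Kupffer cells in the mouse, whereas Marco, Cd163 and the C1q genes are expressed by other macrophages as well. The samples were whole liver, so more cells of a type and more RNA per cell cannot be told apart.

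Levels are given as FPKM, the number of fragments scaled by transcript length and library size, which allows genes to be compared. The libraries held an estimated 13500000 to 16900000 mapped reads. The 9 genes corresponded to between about 156 and 5827 reads per library, so that counting error amounted to 8% and 1.31% of the level. Between libraries, control replicate 1 correlated with 7KC replicate 1 (0.979 across genes on the log2 scale) almost as closely as with its own replicate (0.980). Nothing in the labels says that replicates were separate animals, so p-values measure only the spread between these samples.

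All 9 genes were detected in every library. In the control group the mean level was lowest for Cd163, which exceeded 30.8% of the 12299 tested genes over all libraries, and highest for C1qb, which exceeded 97.0%. From the bottom, the control means ran Cd163, Timd4, Vsig4, Clec4f, Marco, Cd5l, C1qa, C1qc and C1qb. In the control group no neighbours in this order had overlapping libraries. The gap was narrow between Clec4f and Marco and among the C1q genes. In the 7KC group the order was the same, but Marco overlapped with Cd5l, Cd5l with C1qa, and the 3 C1q genes with each other.

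The 9 genes did not all differ in one direction. Higher values in both 7KC libraries than in either control library were found for Timd4, Marco, Cd5l, C1qa, C1qb and C1qc, and lower ones for Vsig4 and Cd163, while Clec4f overlapped. Non-overlap was thus seen in 8 of 9 genes, and in 52.5% of all tested genes. By direction it was 6 of 9 higher, against 25.1% of all tested genes, and 2 of 9 lower, against 27.4%. None of the 9 passed an adjusted p under 0.05 with limma, against 0.504% of all tested genes (59 genes or 0.48% higher, and 3 genes or 0.0244% lower). At an unadjusted p under 0.05 there were 5 of 9, against 17.8% of all tested genes. The median log2 change of the 9 genes, from the control to the 7KC group on the log2(FPKM + 0.5) scale, was 0.83, and that of all tested genes was -0.03. 7KC replicate 2 had the highest level of all libraries in 7 of the 9 genes, and the median was 0.57 without it.

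**Figure D1:**
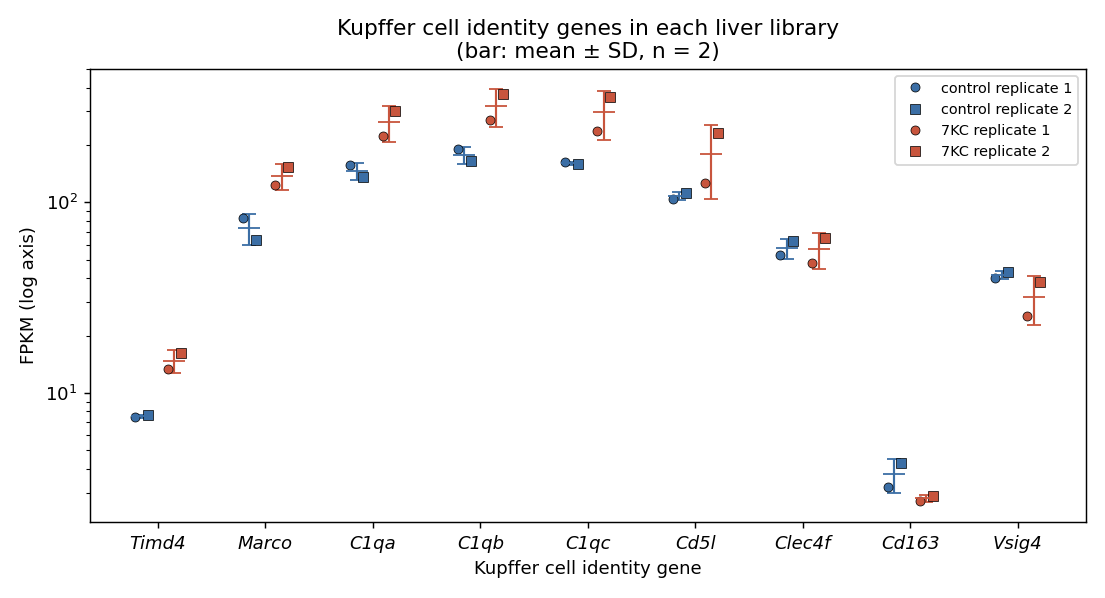
FPKM of the 9 Kupffer cell identity genes (log axis) in the 2 control libraries (blue) and the 2 7KC libraries (red), with replicate 1 as circles and replicate 2 as squares, and the mean ± SD of each group as bars. Both red points lie above both blue points for Timd4, Marco, Cd5l and the C1q genes, below them for Cd163 and Vsig4, and overlap them for Clec4f.

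The first genes encode receptors that bind particles and dying cells. Timd4 (chromosome 11, 46810800 to 46844332, plus strand, build mm10) encodes a receptor for phosphatidylserine, the lipid that apoptotic cells expose. It measured 7.44 and 7.62 FPKM on the NASH diet alone, against 13.3 and 16.3 FPKM with 7KC. The control libraries were nearly equal and both 7KC libraries were well above them. The group means were 7.53 ± 0.125 and 14.8 ± 2.11 FPKM (SD, n = 2 each), a ratio of 1.96. The log2 change was 0.92 (SE 0.14, 95% interval 0.57 to 1.27, limma adjusted p 0.0606), the smallest p among the 9 genes. With the sums of FPKM made equal across libraries, Timd4 had a log2 change of 1.14 and passed (limma adjusted p 0.0393).

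Marco (chromosome 1, 120474538 to 120505024, minus strand) encodes a class A scavenger receptor that binds bacteria and modified lipoproteins. It measured 82.4 and 63.4 FPKM on the NASH diet alone, against 123 and 153 FPKM with 7KC. The groups were apart by more than the difference between replicates, with means of 72.9 ± 13.4 and 138 ± 21.5 FPKM (SD, n = 2 each) and a ratio of 1.89. The log2 change was 0.92 (SE 0.18, 95% interval 0.45 to 1.39, limma adjusted p 0.0966). With equal sums it was 1.13 and passed (limma adjusted p 0.0477). Rescaling moved the median of all tested genes from -0.03 to 0.17, so both values stand relative to that shift.

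C1qa, C1qb and C1qc encode the 3 chains of C1q, the recognition part of the first complement component, which also tags apoptotic cells and debris. In the liver C1q is made largely by Kupffer cells and other macrophages. The 3 genes lie next to each other on chromosome 4, all on the minus strand, within 18675 bases. C1qb (136880129 to 136886187) is separated by 3616 bases from C1qc (136889804 to 136893065), which is 2851 bases from C1qa (136895917 to 136898803).

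C1qa measured 156 and 135 FPKM on the NASH diet alone, against 223 and 303 FPKM with 7KC. C1qb measured 190 and 164 FPKM on the NASH diet alone, against 270 and 371 FPKM with 7KC. C1qc measured 162 and 158 FPKM on the NASH diet alone, against 237 and 358 FPKM with 7KC. In all 3 genes the lower 7KC library, replicate 1, was above both control libraries, and the spread was wider in the 7KC group. The ratios of the means were 1.80, 1.82 and 1.86 for C1qa, C1qb and C1qc. The log2 changes were 0.83 (SE 0.19), 0.84 (SE 0.19) and 0.86 (SE 0.21), with limma adjusted p of 0.117, 0.119 and 0.138. Their 95% intervals started at 0.36, 0.36 and 0.32. C1qc depended most on one library, with a log2 change of 0.57 without 7KC replicate 2.

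Within a library the chains kept nearly the same proportions. The ratio of C1qa to C1qb was 0.825 and 0.826 on the NASH diet alone, against 0.823 and 0.816 with 7KC, and it does not depend on how libraries are scaled. The ratio of C1qb to C1qc was 1.17 and 1.03 on the NASH diet alone, against 1.14 and 1.04 with 7KC. It thus differed between replicates 1 and 2 of both groups, while the groups overlapped.

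The sequence just upstream of the genes with the highest 7KC levels relative to the control is shown, with that of Vsig4 for contrast, because the neighbouring C1q genes differed by like amounts. The stretches are from the RefSeq promoter table for GRCm38.p6, of which mm10 is the same assembly, and end just before the most upstream annotated start. That table matched 8 of the 9 genes and held no window for C1qa, which was therefore neither shown nor searched. Each is printed 5′ to 3′ on the strand of its gene. Capitals mark matches to the motifs searched.
C1qb, chr4:136886201-136886300, minus strand: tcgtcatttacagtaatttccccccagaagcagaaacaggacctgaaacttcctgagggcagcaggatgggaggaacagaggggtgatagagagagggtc
C1qc, chr4:136893066-136893164, minus strand: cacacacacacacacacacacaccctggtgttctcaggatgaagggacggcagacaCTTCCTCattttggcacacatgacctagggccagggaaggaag
Timd4, chr11:46810699-46810798, plus strand: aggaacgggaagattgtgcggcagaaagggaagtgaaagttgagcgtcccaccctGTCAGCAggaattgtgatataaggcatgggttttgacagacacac
Marco, chr1:120505025-120505124, minus strand: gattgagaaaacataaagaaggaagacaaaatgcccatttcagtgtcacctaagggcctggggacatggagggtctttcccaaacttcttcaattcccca
Vsig4, chrX:96293439-96293538, minus strand: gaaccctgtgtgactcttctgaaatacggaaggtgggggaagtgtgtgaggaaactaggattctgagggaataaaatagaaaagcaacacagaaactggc

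The motifs were searched on both strands of windows of 300 bases, from 250 before to 50 after each RefSeq start. The core GAGGAAG bound by PU.1, the factor that defines the myeloid lineage, was in the windows of Marco, Cd5l and C1qc, and in 13.6% of 32851 windows. The matches in C1qc and Cd5l were on the opposite strand, and that in Marco lay upstream of the stretch shown. The core TGCTGAC of the site bound by MAF factors was in the window of Timd4, on the opposite strand, and in 4.67% of all windows. The windows of C1qb, Clec4f, Cd163 and Vsig4 held neither motif. A match is a description of the letters only, and the motifs do not overlap each other.

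Cd5l (chromosome 3, 87357881 to 87371073, plus strand) encodes AIM, a secreted protein of tissue macrophages that travels with IgM and is a target of the liver X receptor. It measured 105 and 112 FPKM on the NASH diet alone, against 126 and 232 FPKM with 7KC. The control libraries were close together, whereas the 7KC libraries differed widely from each other. The log2 change was 0.65 (SE 0.29, 95% interval -0.09 to 1.40, limma adjusted p 0.326). It was 0.21 without 7KC replicate 2 and 1.09 without 7KC replicate 1.

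The other genes of the set were not higher in the 7KC group. Clec4f (chromosome 6, 83644542 to 83656187, minus strand) encodes a C-type lectin that binds galactose and is the most specific of these markers. It measured 52.7 and 62.3 FPKM on the NASH diet alone, against 48.1 and 65.1 FPKM with 7KC. The 7KC libraries thus enclosed the control libraries. The log2 change was -0.03 (SE 0.18, limma adjusted p 0.940), with a 95% interval of -0.50 to 0.43. Its direction changed to 0.17 with equal sums and to 0.0036 when rescaled by the median ratio.

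Vsig4 (chromosome X, 96247203 to 96293438, minus strand) encodes the complement receptor CRIg, which captures particles coated with C3 fragments. It measured 40.1 and 43.0 FPKM on the NASH diet alone, against 25.4 and 38.4 FPKM with 7KC. Both 7KC libraries were lower, but replicate 2 only slightly. The log2 change was -0.41 (SE 0.21, 95% interval -0.94 to 0.12, limma adjusted p 0.375), and it was -0.11 without 7KC replicate 1 and -0.70 without 7KC replicate 2.

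Cd163 (chromosome 6, 124304656 to 124330527, plus strand) encodes the receptor for complexes of haemoglobin and haptoglobin. It measured 3.19 and 4.28 FPKM on the NASH diet alone, against 2.72 and 2.89 FPKM with 7KC. The 7KC libraries were close together and below both control libraries. The log2 change was -0.35 (SE 0.17, 95% interval -0.78 to 0.09, limma adjusted p 0.360). Leaving out control replicate 2 gave -0.16 and leaving out control replicate 1 gave -0.53. With equal sums, Vsig4 and Cd163 kept their direction (-0.20 and -0.18), but the groups overlapped for both.

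**Figure D2:**
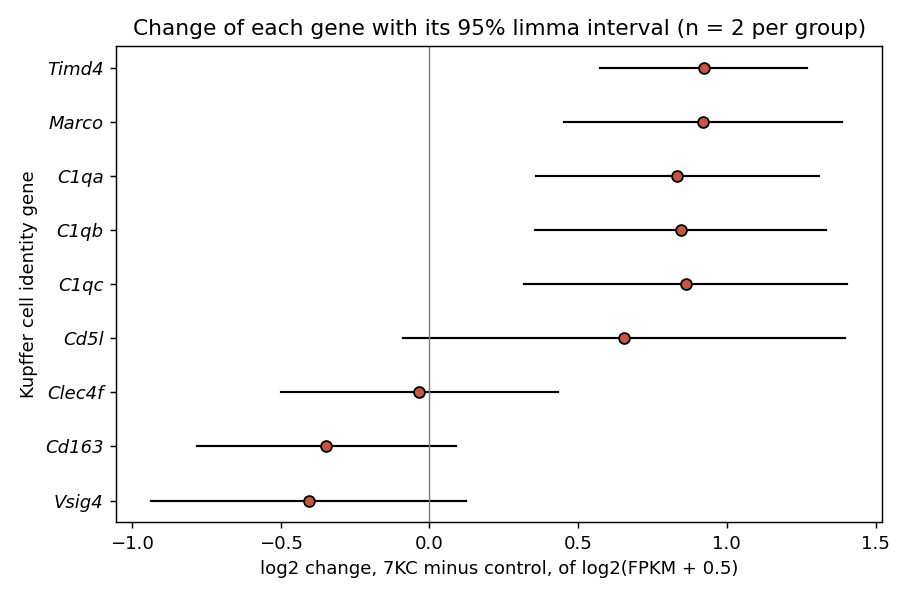
Log2 change of each Kupffer cell identity gene (7KC minus control, on the log2(FPKM + 0.5) scale, n = 2 per group) as a point, with its 95% limma interval as a line. The intervals of Timd4, Marco, C1qa, C1qb and C1qc lie above 0, and those of Cd5l, Clec4f, Cd163 and Vsig4 include 0.

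Ratios of genes within a library show the split without regard to the scaling of libraries. The pairs were chosen after the values were seen, and no test was made. The ratio of C1qb to Clec4f was 3.60 and 2.63 on the NASH diet alone, against 5.62 and 5.70 with 7KC. The ratio of Marco to Clec4f was 1.56 and 1.02 on the NASH diet alone, against 2.55 and 2.35 with 7KC. In both pairs the 7KC libraries were above the control libraries and closer to each other.

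The ratio of Timd4 to Clec4f was 0.141 and 0.122 on the NASH diet alone, against 0.276 and 0.250 with 7KC. Relative to Vsig4, Timd4 was at 0.186 and 0.177 on the NASH diet alone, against 0.524 and 0.424 with 7KC. Timd4 was thus higher relative to both of these genes, neither of which was itself higher with 7KC. The log2 change of Timd4 (0.92) was close to those of Marco (0.92) and the C1q genes (0.83 to 0.86). The share of embryonic Kupffer cells was not tested. Vsig4 relative to Clec4f was at 0.761 and 0.690 in the control libraries and lower, at 0.528 and 0.590, in the 7KC libraries.

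**Figure D3:**
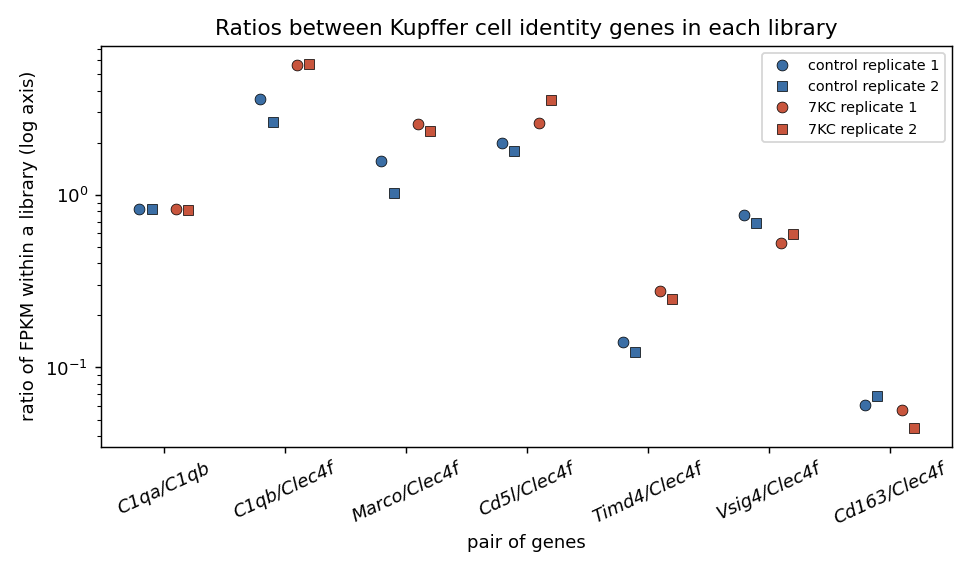
Ratio of the FPKM of 2 genes within each library (log axis) for 7 pairs, with control libraries in blue and 7KC libraries in red. C1qa/C1qb is level at 0.816 to 0.826 in all libraries, the ratios of C1qb, Marco, Cd5l and Timd4 to Clec4f are higher in both 7KC libraries, and Vsig4/Clec4f and Cd163/Clec4f are lower.

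Other Kupffer cell genes were mixed in the same way. Of 16 such genes, 12 had a positive and 4 a negative log2 change, with a median of 0.26. None passed with limma and 3 had an unadjusted p under 0.05, against 17.8% of all tested genes. Without overlap, 7 of the 16 were higher with 7KC and 1, Hpgd, was lower, against 25.1% and 27.4% of all tested genes. The smallest p of the 16 were those of Il18bp, the secreted inhibitor of IL-18, and the potassium channel gene Kcna2. Il18bp measured 25.1 and 28.0 FPKM on the NASH diet alone, against 47.3 and 71.0 FPKM with 7KC (log2 change 1.11, SE 0.21, limma adjusted p 0.0872). Kcna2 differed by 0.68 on the log2 scale (SE 0.21, adjusted p 0.201). Named after their values were seen, the ficolin gene Fcna, the folate receptor gene Folr2 and the iron exporter gene Slc40a1 had log2 changes of -0.08, 0.02 and 0.01, and the groups overlapped for all 3.

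Among 15 transcription factor genes of Kupffer cells, 1 passed, Irf8, against 0.504% of all tested genes. Of the 15, 10 had a positive and 5 a negative log2 change, with a median of 0.35. An unadjusted p under 0.05 with limma was found for 5, against 17.8% of all tested genes. Without overlap, 8 were higher with 7KC and 1 was lower, against 25.1% and 27.4% of all tested genes. Irf8, a factor of monocyte and macrophage development, rose from 10.6 and 8.16 FPKM on the NASH diet alone to 26.8 and 26.2 FPKM with 7KC. The 7KC libraries were almost equal and far above both control libraries (log2 change 1.46, SE 0.15, limma adjusted p 0.0369). The call was lost without control replicate 2 (adjusted p 0.0543), 7KC replicate 1 (0.154) or 7KC replicate 2 (0.263). It was also lost with no filter on low values (adjusted p 0.120), without a trend in the prior variance (0.0603) and with the replicate number as a block (0.151). Irf7, a factor of the interferon response, differed by 1.06 on the log2 scale (SE 0.16, adjusted p 0.0619), and Spi1, which encodes PU.1, had 1.17 (SE 0.24, adjusted p 0.0987). Nr1h3 encodes LXR-alpha, on which Kupffer cell identity depends. Named for this role, it measured 58.5 and 62.7 FPKM on the NASH diet alone, against 62.1 and 57.5 FPKM with 7KC, and the groups overlapped (log2 change -0.02, adjusted p 0.944). Hepatocytes express Nr1h3 too.

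The niche signals of Kupffer cells come from stellate, endothelial and parenchymal cells. Of 13 genes for such ligands and their receptors, 9 had a positive and 4 a negative log2 change, with a median of 0.29. None passed with limma, and 6 had an unadjusted p under 0.05, against 17.8% of all tested genes. Csf1, the growth factor of macrophages, measured 4.54 and 4.73 FPKM on the NASH diet alone, against 8.38 and 9.56 FPKM with 7KC (log2 change 0.88, SE 0.13, limma adjusted p 0.0596). Tgfb1, a cytokine on which Kupffer cell identity depends, measured 11 and 8.33 FPKM on the NASH diet alone, against 15.9 and 23.4 FPKM with 7KC (log2 change 0.98, SE 0.23, adjusted p 0.124). For both ligands the groups did not overlap. The receptor gene of Csf1, Csf1r, measured 36.8 and 40.4 FPKM on the NASH diet alone, against 52.9 and 84.1 FPKM with 7KC (log2 change 0.78, adjusted p 0.19). Bmp10 encodes a ligand of the receptor ALK1. It measured 0.998 and 1.63 FPKM on the NASH diet alone, against 0.263 and 0.456 FPKM with 7KC (log2 change -1.06, SE 0.26, limma adjusted p 0.133). Bmp10 passed the filter of 0.5 FPKM only through its control libraries, and for such a gene the filter favours a negative change.

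Of genes that macrophages in general express, all 14 had a positive log2 change, with a median of 1.18. None passed with limma, and 12 had an unadjusted p under 0.05, against 17.8% of all tested genes. In 12 of 14 the 7KC libraries were higher without overlap, against 25.1% of all tested genes, the exceptions being Adgre1 and Mertk. With equal sums 6 of the 14 passed, where 402 higher and 7 lower genes passed among all tested genes. With a pseudocount of 1 FPKM 1 of the 14 passed, where 111 higher and 4 lower passed among all tested genes. With the replicate number as a block none passed, in this list or among all tested genes. The 2 smallest p were those of Aif1, which encodes an actin-binding protein of macrophages (log2 change 1.33, SE 0.16, adjusted p 0.0512), and the integrin gene Itgam (1.67, SE 0.24, adjusted p 0.0596). All 9 Kupffer cell identity genes had a log2 change below the median of these genes, and 11 of the 14 exceeded the largest, that of Timd4. The median of all tested genes, -0.03, was below it too, and the share of all tested genes below it was not counted. The other 3 general macrophage genes, Mertk (0.48), Adgre1 (0.73) and Csf1r (0.78), had log2 changes below those of Timd4, Marco and the C1q genes. The difference between the lists was not tested.

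Set against the mean of the general macrophage genes within each library, the mean log2 level of the 9 genes was 0.92 and 1.15 on the NASH diet alone, against 0.42 and 0.33 with 7KC. The difference of the group means was -0.66. By gene it was -1.54 for Vsig4, -1.48 for Cd163 and -1.16 for Clec4f, and between -0.48 and -0.21 for the others. On this measure 8 of the 9 genes were lower without overlap, but so were 92.7% of all tested genes, and their median difference was -1.16. Clec4f, Vsig4 and Cd163 thus stood near or below the median of all genes and the other members above it. Relative to Adgre1 alone, which encodes F4/80, Timd4 was at 0.749 and 0.525 on the NASH diet alone, against 0.932 and 0.569 with 7KC, and the groups overlapped. Clec4f relative to Adgre1 was 5.30 and 4.30 on the NASH diet alone, against 3.37 and 2.28 with 7KC. Vsig4 relative to Adgre1 was 4.04 and 2.97 on the NASH diet alone, against 1.78 and 1.34 with 7KC. Both were lower without overlap. C1qb relative to Adgre1 was 19.083 and 11.295 on the NASH diet alone, against 18.958 and 12.975 with 7KC, and the groups overlapped. Adgre1 itself had a log2 change of 0.73 with overlapping groups, so a gene with no change would tend to be lower relative to it. The share of all tested genes that were lower relative to Adgre1 was not counted.

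Markers of cells that enter the liver from blood were examined next. Of 16 genes of monocytes and recruited macrophages, 15 had a positive log2 change, with a median of 1.26. None passed with limma, and 11 had an unadjusted p under 0.05, against 17.8% of all tested genes. With equal sums 3 of the 16 passed, where 402 higher and 7 lower genes passed among all tested genes. With a pseudocount of 1 FPKM 1 of the 16 passed, where 111 higher and 4 lower passed among all tested genes. With the replicate number as a block none passed, in this list or among all tested genes. The groups overlapped for Cx3cr1, Trem2, Gpnmb and Cd9. Fn1, which encodes fibronectin and which hepatocytes also express, measured 263 and 274 FPKM on the NASH diet alone, against 210 and 217 FPKM with 7KC (log2 change -0.33, adjusted p 0.245). The summed level of the 16 genes was 435 to 523 FPKM in the control libraries and 721 to 975 FPKM in the 7KC libraries, and no marker was listed at 0. Without Fn1, left out after its values were seen, the sum was 260 and 160 FPKM on the NASH diet alone, against 510 and 758 FPKM with 7KC. Of this sum, Spp1 made up 85.6 and 54.1 FPKM on the NASH diet alone, against 165 and 363 FPKM with 7KC. Spp1 is also in the cholangiocyte list, so the sums do not measure monocytes alone. Ly6c2, the surface mark of inflammatory monocytes, measured 11.1 and 5.39 FPKM on the NASH diet alone, against 44.2 and 42.2 FPKM with 7KC (log2 change 2.40, SE 0.32, limma adjusted p 0.0523). Plac8 differed by 1.68 on the log2 scale (SE 0.22, adjusted p 0.0523). Monocyte-derived macrophages also express C1q and Marco. The part of these cells in the levels of the 9 genes was not tested.

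**Figure D4:**
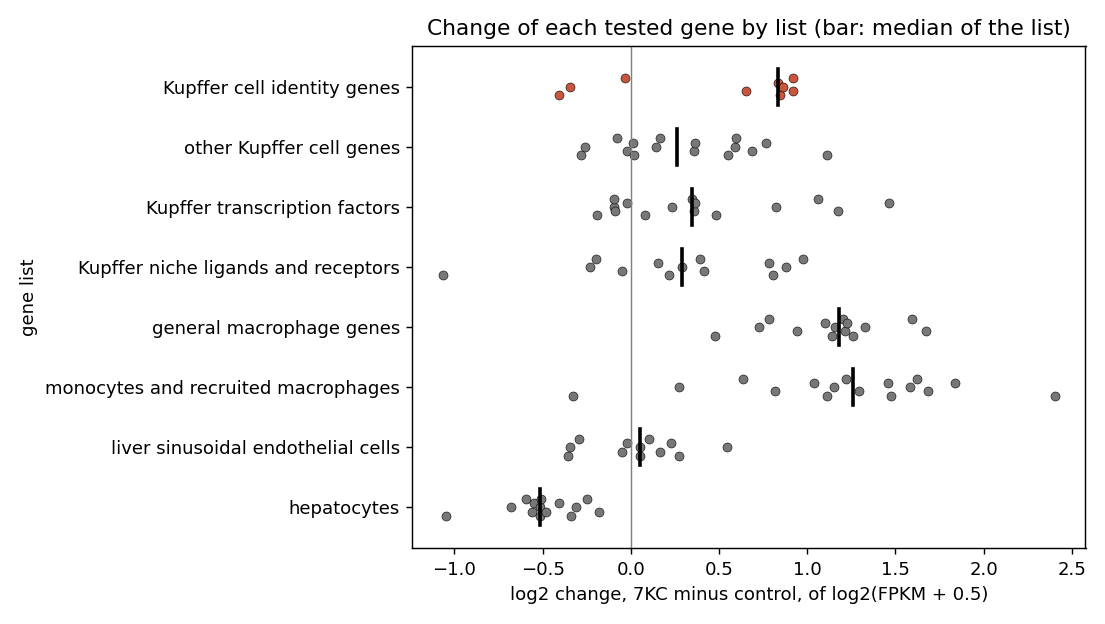
Log2 change (7KC minus control, on the log2(FPKM + 0.5) scale) of each tested gene in 8 gene lists, with the median of each list as a bar. The 9 Kupffer cell identity genes (red) split into 6 near 0.65 to 0.92 and 3 between -0.41 and -0.03, and the medians of the general macrophage and monocyte lists are 1.18 and 1.26.

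Markers of other liver cells were counted in the same way. Hepatocyte genes were negative in 14 of 14, with a median log2 change of -0.51 and a summed level of 74627 to 87545 FPKM in the control libraries and 48114 to 63773 FPKM in the 7KC libraries. The largest and smallest of these sums were in control replicate 1 and 7KC replicate 2. None passed, and the smallest p were those of G6pc (-1.05, limma adjusted p 0.109) and Tdo2 (-0.56, 0.218). FPKM is relative to the whole library. The part of hepatocyte RNA in the values of the 9 genes was not tested, and the rescaling above does not separate it. Sinusoidal endothelial genes, which share the niche of Kupffer cells, had a median of 0.05 over 12 genes. The smallest p there were those of Fcgr2b (0.55, adjusted p 0.278) and Oit3 (-0.36, 0.460).

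T and NK cell genes were positive in 14 of 14 tested, with a median of 1.25. All had an unadjusted p under 0.05, against 17.8% of all tested genes, though none passed with limma. With equal sums 4 passed, where 402 higher and 7 lower genes passed among all tested genes. With a pseudocount of 1 FPKM 3 passed, where 111 higher and 4 lower passed among all tested genes. With the replicate number as a block none passed, in this list or among all tested genes. Cd3e and Cd4 had log2 changes of 1.26 and 1.42 (adjusted p 0.0503 and 0.0512). Prf1 and Klrb1c, with control means of 0.149 and 0.347 FPKM, passed the filter of 0.5 FPKM only through their 7KC libraries. For genes kept in this way the filter favours a positive change. Medians were 0.49 for 4 B cell genes, 0.36 for 5 neutrophil genes, -0.20 for 8 stellate cell genes and 0.04 for 5 cholangiocyte genes, and none of these genes passed with limma. The numbers with an unadjusted p under 0.05 were 1, 1, 2 and 1, against 17.8% of all tested genes. The smallest p were those of Cd79b (0.86, adjusted p 0.218) and Cd22 (0.58, 0.358) for B cells, S100a9 (0.51, 0.257) and Camp (-0.37, 0.380) for neutrophils, and Colec10 (-0.44, 0.149) and Reln (-0.46, 0.228) for stellate cells. For cholangiocytes they were Spp1 (1.84, 0.119), which macrophages also express, and Sox9 (0.33, 0.481).

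Finally, the partners with which the 9 genes work were examined. In the list of the C1 complex and the classical pathway, 12 of 15 genes were tested, with a median log2 change of 0.10. None passed with limma, and 2 had an unadjusted p under 0.05, against 17.8% of all tested genes. The 2 with the smallest p were the complement receptor genes Itgam and Itgax (1.67 and 1.62, limma adjusted p 0.0596 and 0.167). The proteases of C1 are made mainly by hepatocytes. Named for that role, C1ra measured 138 and 142 FPKM on the NASH diet alone, against 154 and 139 FPKM with 7KC. C1s1 measured 208 and 209 FPKM on the NASH diet alone, against 214 and 211 FPKM with 7KC. Their log2 changes were 0.07 and 0.02, against 0.83 to 0.86 for the C1q genes.

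Of 17 genes listed for the recognition of apoptotic cells, a task of Timd4, 14 were tested, 11 with a positive log2 change, and the median was 0.31. None passed with limma, and 4 had an unadjusted p under 0.05, against 17.8% of all tested genes. Among these 4, Timd2 was lower without overlap (log2 change -0.52, limma adjusted p 0.192). Cd300lf, a receptor for phosphatidylserine, differed by 1.23 on the log2 scale (SE 0.22, limma adjusted p 0.0742), and the receptor kinase gene Axl had 0.98 (SE 0.25, adjusted p 0.148). Of 10 genes for the clearance of haemoglobin and haem, the task of Cd163, 9 had a positive log2 change, with a median of 0.15. None passed, and 2 had an unadjusted p under 0.05, against 17.8% of all tested genes. The haem transporter gene Slc48a1 and the haem oxygenase gene Hmox1 had log2 changes of 0.49 and 0.56 (adjusted p 0.168 and 0.219), whereas that of Cd163 was -0.35.

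Among the tested genes whose centred profile over the 4 libraries was closest to the mean profile of the 9 genes were Gdpd5, Sestd1, Myo9a and Slc45a4. Their root mean square distance from it was 0.0265 to 0.031 on the log2 scale. The mean profile averages 6 genes with a positive and 3 with a negative log2 change, so it need not be that of any single member. Slc45a4, which had the highest level of these 4, measured 2.62 and 2.68 FPKM on the NASH diet alone, against 3.32 and 4.88 FPKM with 7KC. Sestd1, at 0.491 and 0.453 FPKM on the NASH diet alone, passed the filter of 0.5 FPKM only through its 7KC libraries. Gdpd5 was close to the filter on the NASH diet alone (0.498 and 0.533 FPKM). This likeness rests on 4 libraries and is a description only.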

How the data were processed

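The authors prepared stranded mRNA libraries, sequenced them as single-end reads of 75 bases and mapped them to mm10. The submitters' processing notes name TopHat2 2.1.1, Bowtie2 2.2.8, SAMtools 0.1.18 and Cuffdiff 2.2.1. The study's methods name other versions of the first 3 and Cufflinks in place of Cuffdiff. These can scale FPKM differently, and which was used for these files is not settled here. The authors deposited FPKM, 1 value per gene symbol and library. The annotation and the handling of strand and of reads with several hits are not given in the sources used here.

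Genes averaging 0.5 FPKM or more across all 4 libraries, 12299 in number, were compared on log2(FPKM + 0.5) with limma 3.58.1 in R 4.3.3 (trended prior variance, group as the only term). Adjustment was by Benjamini-Hochberg over all tested genes, with a threshold of 0.05. All 9 genes passed the filter. Among the context genes, Prf1, Klrb1c and Ptgir passed it only through their 7KC libraries, and Bmp10 only through its control libraries. Sestd1, named for likeness, passed it only through its 7KC libraries. An exact permutation test of 2 against 2 libraries cannot go below 0.333. Context genes were named by the 2 to 4 smallest p in each list, with others named for a role or after their values were seen, and lists share some genes (Csf1r, Itgam, Itgax, Mertk, Spp1, Stab2, Cdh5 and Slc40a1). Members, lists and motifs were chosen with earlier results of these data known. Depth was estimated from the steps of low FPKM values in genes with 1 transcript in GENCODE M21, of which 75.0% to 75.8% fell within 0.1 of a whole read. Intervals of counting cover counting error only. Alternatives changed the pseudocount, filter, prior, scaling and block, or left out 1 library. 1 gene that met the rule for likeness is not reported here.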

Additional observations from a re-analysis of the deposited data

How the results depend on the processing

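Of 108 values of the 9 genes under 12 alternatives, 102 kept their direction and side of the threshold, and the rest were 4 changes of direction, all in Clec4f, and 2 gained calls. Rescaling to the same sum gave 2 of 9 genes past the threshold, Timd4 (log2 change 1.14) and Marco (1.13), and moved Clec4f to 0.17. Rescaling by the median ratio moved Clec4f to 0.0036. With 1 library left out, Clec4f ranged from -0.25 to 0.18 and the median of the 9 genes from 0.57 to 1.06. The level relative to general macrophage genes ranged from -0.78 to -0.54 and none of the 9 passed. Where a group is left with 1 library, that library is assumed to vary like the others. The cause of these shifts was not tested. With the replicate number as a block, 0 of the 9 genes passed and Timd4 had an adjusted p of 0.194, against 0 calls among all genes. The deviations of same-numbered libraries were weakly and negatively correlated (-0.14 over genes), and the labels do not pair them. A crossed block, added after seeing the data, gave 551 higher and 37 lower genes, with 2 of the 9 among them. Over all genes, 59 higher and 3 lower became 111 and 4 with a pseudocount of 1 FPKM, 0 and 1 without a filter, 39 and 1 without a trend in the prior, 402 and 7 with equal sums, 122 and 4 with the median ratio, 404 and 54 or 48 and 5 without control replicate 1 or 2, and 4 and 1 or 2 and 2 without 7KC replicate 1 or 2. Over the 12 alternatives the calls ranged from 0 to 6 of 14 general macrophage genes, 0 to 7 of 16 monocyte genes and 0 to 8 of 14 T and NK cell genes, and the crossed block gave 11, 10 and 5. With 2 libraries per group, single genes rest on the variance shared between genes.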
